A study of Homo sapiens with 4 samples.

Results

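MAP kinase cascades pass signals from the cell surface and from stress inside the cell through successive protein kinases. MAP3Ks phosphorylate MAP2Ks, MAP2Ks phosphorylate the MAP kinases (ERK, JNK and p38), and dual-specificity phosphatases (DUSPs) remove the activating phosphates again. In sympathetic neuroblastoma cells these cascades are known for carrying growth factor, differentiation and stress signals. The genes described here were chosen by symbol: those that start with MAPK, MAP2K, MAP3K, MAP4K, RPS6K, PTPN or PTPR, or with DUSP and a digit, apart from DUSP4, DUSP5 and DUSP6. This gave 76 genes out of 14884 with a named probe set, by a rule that uses the symbols alone. They are 68 protein-coding genes and 8 noncoding RNAs or pseudogenes. The only symbols that start with PTPN, PTPR or RPS6K among them are RPS6KL1, PTPRG-AS1, PTPRN2-AS1 and RPS6KA2-IT1, so the phosphatases described are DUSPs and tyrosine phosphatases of the other families were not analysed here.

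The RNA came from SH-SY5Y, an established human neuroblastoma cell line of sympathetic lineage. Cultures received origamicin at 30 µM for 24 h (2 arrays) or methanol, its solvent, for 24 h (mock, 2 arrays). The submitters describe origamicin as an inhibitor of protein disulfide isomerase, the enzyme that forms and rearranges disulfide bonds in the endoplasmic reticulum. Total RNA was read on Affymetrix Human Gene 2.0 ST arrays, with levels given as log2 expression of a probe set. Replicates are labelled as biological, without word on separate passages or days, and the p-values cover only the array-to-array spread, which may be partly technical.

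Of the 76 genes, 73 lay above the filter on dim genes (a mean of 3.82 on the log2 scale, the 40th percentile of all probe sets) and were tested with limma, with p-values adjusted over the 11883 genes tested in all. The 3 below the filter were the phosphatase gene DUSP21 (2.82 and 3.11 with origamicin, 3.32 and 3.32 in mock), the kinase gene MAP3K19 (2.46 and 2.57 with origamicin, 2.46 and 2.40 in mock) and the antisense RNA MAP3K20-AS1 (3.36 and 3.80 with origamicin, 3.44 and 3.39 in mock). Across the 73 genes the median absolute log2 difference between the arrays of a group was 0.09 (origamicin) and 0.10 (mock), and between arrays of different groups it ran from 0.12 to 0.15. Noradrenergic neuroblastoma markers had a mean level of 9.82 and 9.84 with origamicin, against 10.08 and 10.11 in mock, on the log2 scale over 13 genes. Mesenchymal neuroblastoma markers stood at 6.32 and 6.23 with origamicin, against 6.02 and 6.01 in mock, over 11 genes. Glial and Schwann cell markers stood at 4.74 and 4.83 with origamicin, against 4.68 and 4.76 in mock, over 5 genes. The means of the first 2 lists moved with the treatment, but not each gene did. Of the 13 noradrenergic genes 12 were lower and 1 higher, 7 of them lower at an unadjusted limma p under 0.05. Of 10 mesenchymal genes tested 9 were higher and 1 lower, 4 of them higher at that p. Among all genes tested 8.42% were lower and 7.99% higher at that p. The mesenchymal mean includes CD44, which lay below the filter. The part of these lists in the results was not tested. In these bulk samples fewer cells of a type and less RNA per cell cannot be told apart.

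The main question was which genes of the cascade differed after origamicin. None of the 73 genes passed an adjusted p of 0.05 in the limma fit, and 0% of all genes tested did. None had an adjusted p under 0.1 either, which 0.446% of all genes tested reached. At an unadjusted limma p under 0.05 there were 12 (16.4%), 6 higher and 6 lower with origamicin, and 16.4% of all genes tested met the same threshold, 7.99% higher and 8.42% lower. After setting equal array medians there were 10, of which 3 were higher with origamicin, beside 15.8% of all genes tested. The share of the cascade genes was therefore that of genes at large. Both origamicin arrays lay outside the range of both mock arrays for 36 of the 73 genes (17 higher, 19 lower), and for 48.6% of all genes tested (22.7% higher, 25.8% lower). The median log2 change was -0.02 over the 73 genes and -0.01 over all genes tested, and it stood at 0.0026 without origamicin replicate 1 and at 0.0065 without mock replicate 1.

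The changes were small in most genes. In 62 of the 73 genes (84.9%) the log2 change was under 0.25 in size, against 84.4% of all genes tested. It exceeded 0.5 in 3 genes: MAP2K6, MAPK8IP1 and DUSP7, each lower with origamicin. It was under 0.5 in 95.9% of the 73 genes and in 97.8% of all genes tested, and for MAPK8IP1 it was -0.34 with the mean of its probe sets. The moderated standard error (SE) of a change had a median of 0.09 over the 73 genes. The 95% interval, not adjusted for the number of genes, lay within 0.5 of no change on the log2 scale in 57 of the 73 genes and within 1 in 72, the exception being MAP2K6.

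**Figure D1:**
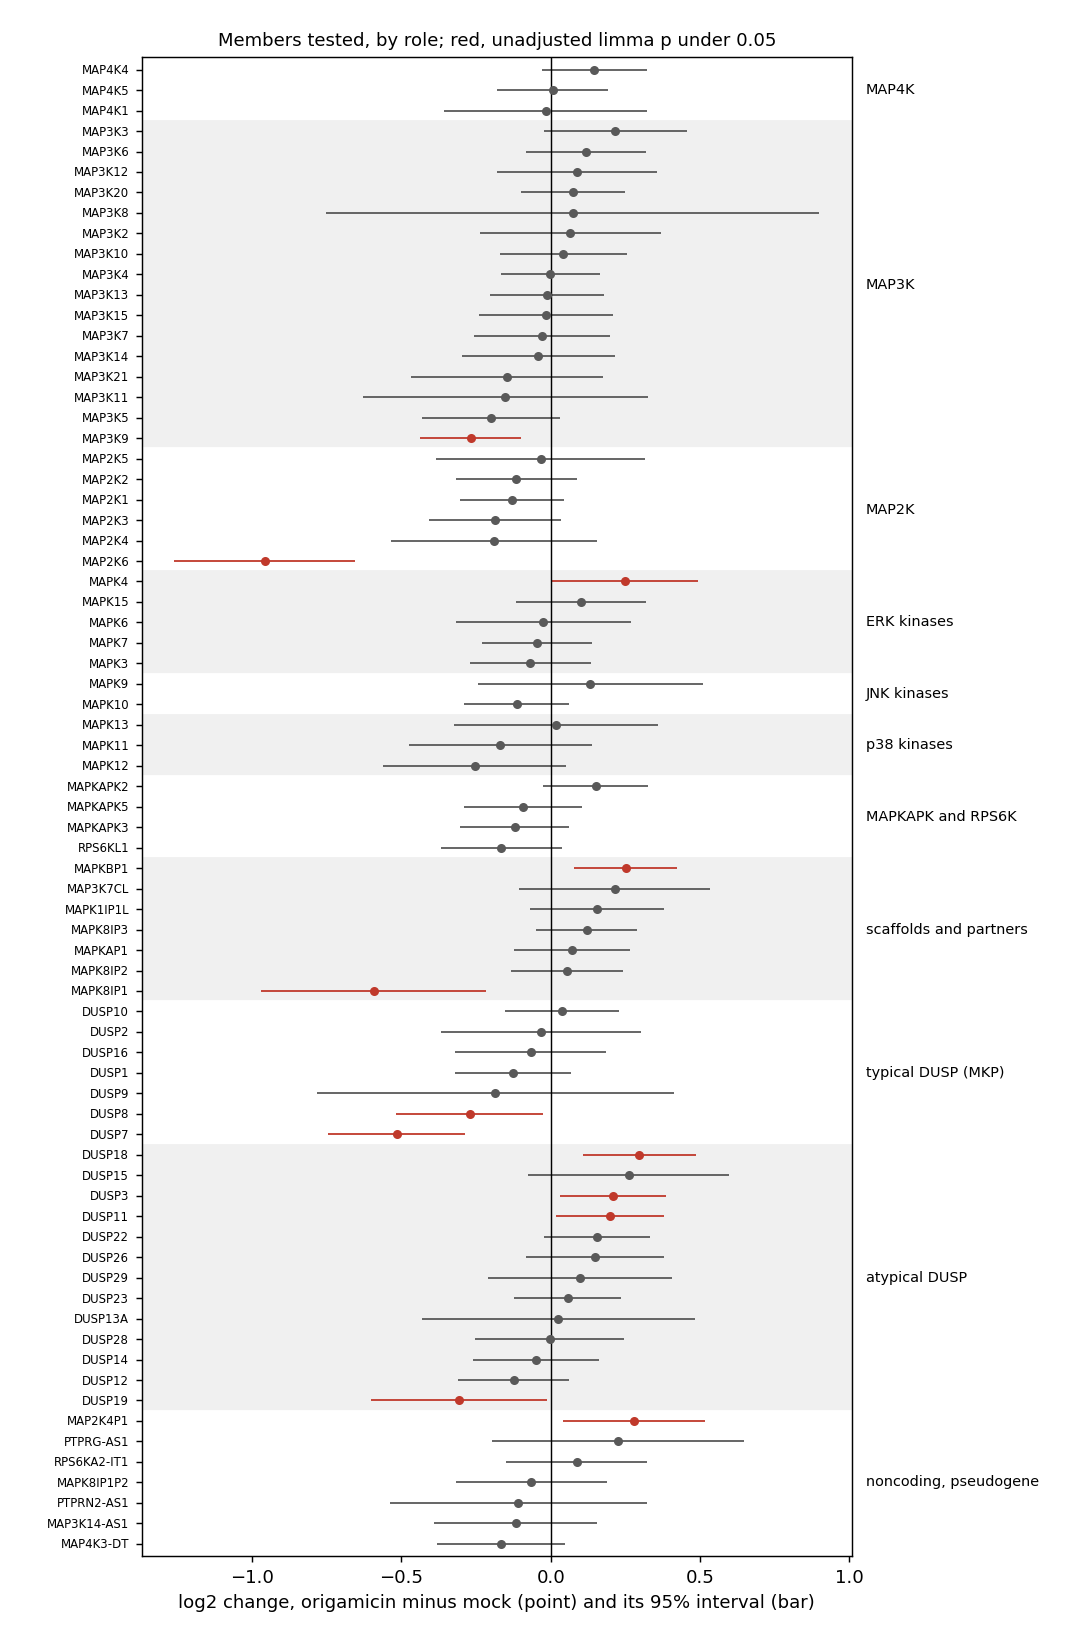
Log2 change (origamicin minus mock, horizontal axis) of each of the 73 genes tested, grouped by role, with its 95% interval from limma as a bar. The 12 genes at an unadjusted p under 0.05 are red, and MAP2K6 at -0.96 and MAPK8IP1 and DUSP7 at -0.59 and -0.52 stand apart from the other genes.

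**Figure D2:**
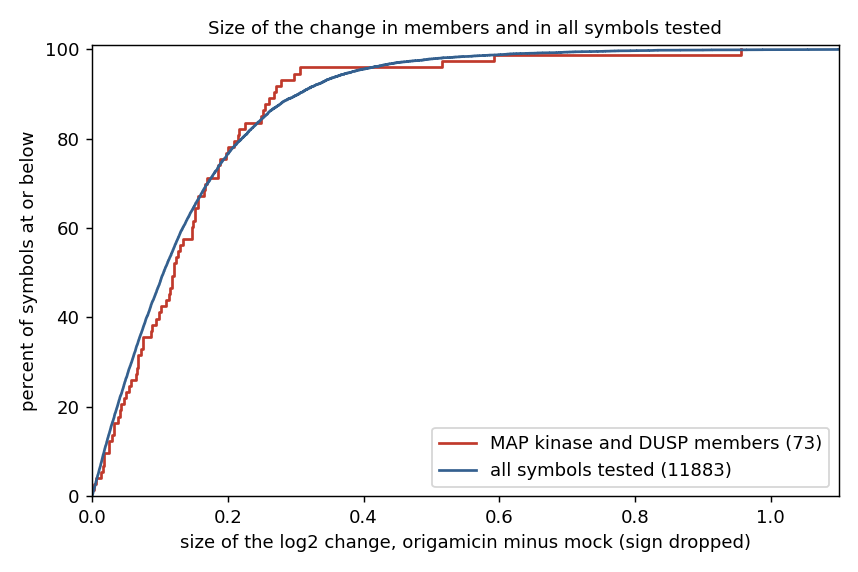
Percent of genes (vertical axis) whose log2 change, with the sign dropped, is at or below the value on the horizontal axis. The 73 cascade and phosphatase genes follow the curve of the 11883 genes tested, with 84.9% and 84.4% under 0.25.

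The 2 genes with the smallest unadjusted limma p were MAP2K6, which encodes the p38-activating kinase MKK6, and DUSP7, which encodes a cytoplasmic phosphatase of ERK. Neither passed an adjusted p of 0.05 in the main limma fit. Both passed it when limma's prior variance followed an intensity trend, as the only genes of the set. They made up 2.74% of the 73 genes, and 4.3% of all genes tested passed in that fit (2.14% higher, 2.16% lower). For these 2 genes the 250 bases before the annotated transcription starts are shown, 5′ to 3′, from RefSeq (GRCh38.p14). Capitals mark matches to GGGCGG on either strand, the GC box bound by SP1-type factors. RefSeq lists 2 starts for MAP2K6, on the plus strand at chr17:69414447-69414696 and chr17:69502012-69502261, and 1 for DUSP7, on the minus strand at chr3:52056572-52056821. The arrays do not tell the starts apart here.
MAP2K6, first start: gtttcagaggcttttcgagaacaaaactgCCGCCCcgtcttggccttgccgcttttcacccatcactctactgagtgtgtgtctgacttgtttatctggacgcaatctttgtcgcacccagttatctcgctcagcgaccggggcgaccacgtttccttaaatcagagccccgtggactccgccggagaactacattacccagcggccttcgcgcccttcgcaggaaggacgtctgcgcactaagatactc
MAP2K6, second start: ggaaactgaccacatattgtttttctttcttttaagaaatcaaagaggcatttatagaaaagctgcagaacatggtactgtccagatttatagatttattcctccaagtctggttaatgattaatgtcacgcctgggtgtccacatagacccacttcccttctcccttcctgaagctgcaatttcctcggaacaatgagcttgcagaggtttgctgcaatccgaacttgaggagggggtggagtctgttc
DUSP7: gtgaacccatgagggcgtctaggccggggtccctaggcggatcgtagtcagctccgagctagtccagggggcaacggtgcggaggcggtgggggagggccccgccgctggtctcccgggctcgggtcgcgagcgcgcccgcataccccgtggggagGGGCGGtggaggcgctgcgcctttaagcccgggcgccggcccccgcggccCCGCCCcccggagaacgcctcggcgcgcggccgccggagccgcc

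Besides the GC box, 5 motifs were searched on both strands of these windows: the cyclic AMP response element TGACGTCA, the AP-1 site TGANTCA, the E-box CACGTG, the EGR site GCGTGGGCG and the antioxidant response core TGACNNNGC, whose matches can share bases with those of TGANTCA. None of the 5 matched the 3 windows shown, which says only that these letters are not in these windows. Of the 73 genes tested, 62 had a promoter in the RefSeq table, with 86 starts in all. The GC box was present before 72.1% of these starts and before 42.6% of all 35116 starts in the table. TGACGTCA was present before 5.81% of them and before 1.65% of all starts. The genes that hold it were DUSP1, DUSP8, MAP3K13, MAPK10 and MAPK8IP3. The shares were 15.1% against 10.9% for TGACNNNGC, 6.98% against 6.34% for CACGTG, 4.65% against 6.57% for TGANTCA and 0% against 0.72% for GCGTGGGCG. All starts in the table include those of genes that were not tested, so the sets differ in more than the symbols. These shares describe the windows and are no measure of binding.

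MAP2K6 stood at 7.66 and 7.94 on the log2 scale with origamicin, against 8.73 and 8.78 in mock. Both origamicin arrays lay below both mock arrays, by more than the arrays of either group lay apart. The log2 change was -0.96 ± 0.11 (SE, n = 2 arrays per group), a level 1.94-fold lower. Its adjusted p was 0.105 in the limma fit, 0.206 with no filter and 0.301 with replicate number as a block. It was 0.0378 with the stricter filter at the 60th percentile and 0.0043 with an intensity trend. With the trend it stayed past the threshold without each array in turn, with changes from -0.82 to -1.10 and adjusted p from 0.00077 to 0.043.

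DUSP7 stood at 6.92 and 6.74 with origamicin, against 7.36 and 7.33 in mock. The groups did not overlap, and the mock arrays lay closer together than the origamicin arrays. The log2 change was -0.52 ± 0.09 (SE), a level 1.43-fold lower. Its adjusted p was 0.160 in the limma fit, 0.286 with no filter and 0.301 with replicate number as a block. It was 0.0234 with an intensity trend. Without mock replicate 1 or mock replicate 2 the adjusted p with the trend was 0.132 and 0.133, no longer past the threshold, with changes of -0.50 and -0.53.

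MAP4Ks act on MAP3Ks, and of the 3 tested (MAP4K1, MAP4K4 and MAP4K5) none had an unadjusted p under 0.05, with log2 changes from -0.02 to 0.15. Among the 16 MAP3Ks tested, 7 were higher and 9 lower, with a median log2 change of -0.01. That split was 10 higher and 6 lower without origamicin replicate 1, 11 and 5 without mock replicate 1, and 6 and 10 without origamicin replicate 2. The only one with an unadjusted limma p under 0.05 was MAP3K9, or MLK1, a mixed lineage kinase that activates the JNK pathway. It stood at 6.38 and 6.34 with origamicin, against 6.62 and 6.64 in mock, a tight pair on each side. The change of -0.27 ± 0.06 (SE) on the log2 scale had an adjusted limma p of 0.190. Its relatives MAP3K10, MAP3K11 and MAP3K21, also mixed lineage kinases, had log2 changes of 0.04 ± 0.08, -0.15 ± 0.18 and -0.15 ± 0.12 (SE), each within overlapping groups.

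MAP3K5 encodes ASK1, a stress kinase that reduced thioredoxin holds inactive. It stood at 5.69 and 5.79 with origamicin, against 5.86 and 6.01 in mock. The groups did not overlap, and the log2 change of -0.20 ± 0.09 (SE) had an adjusted limma p of 0.359. The related kinase gene MAP3K6 was at 0.12 ± 0.07 (SE). MAP3K12, which encodes the axon injury kinase DLK, stood at 6.86 and 6.74 with origamicin, against 6.82 and 6.61 in mock, in overlapping groups with a log2 change of 0.09 ± 0.10 (SE). Its close relative MAP3K13 was at -0.01 ± 0.07 (SE). MAP3K7, which encodes the cytokine-activated kinase TAK1, was at -0.03 ± 0.09 (SE), and MAP3K20, which encodes the ribosome stress sensor ZAK, was at 0.07 ± 0.07 (SE). MAP3K3 had the highest log2 change of the tier, 0.22 ± 0.09 (SE). MAP3K8 was the least precise gene of the set, at 4.38 and 4.34 with origamicin and 4.74 and 3.83 in mock, with an SE of 0.31.

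The MAP2Ks act directly on the MAP kinases. The 6 genes tested, MAP2K1 to MAP2K6, each had a negative log2 change, with a median of -0.16, where 52.1% of all genes tested were lower and 47.8% higher. The 6 were also lower after setting equal array medians and after quantile normalization, and 5 of 6 were lower without origamicin replicate 1 or without mock replicate 2. MAP2K6 was the only one with an unadjusted limma p under 0.05. MAP2K3, which also encodes a p38-activating kinase, stood at 5.38 and 5.22 with origamicin, against 5.47 and 5.50 in mock. Its groups did not overlap, and its log2 change was -0.19 ± 0.08 (SE) with an adjusted limma p of 0.366.

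MAP2K1, which encodes the ERK-activating kinase MEK1, stood at 8.94 and 8.88 with origamicin, against 9.02 and 9.06 in mock. Its groups did not overlap, and the log2 change of -0.13 ± 0.07 (SE) had a 95% interval from -0.30 to 0.05. MAP2K2, which encodes MEK2, stood at 5.39 and 5.37 with origamicin, against 5.43 and 5.56 in mock, also without overlap. Its log2 change was -0.12 ± 0.08 (SE). MAP2K4, which encodes a JNK-activating kinase, stood at 5.26 and 5.56 with origamicin, against 5.52 and 5.68 in mock, in overlapping groups with a log2 change of -0.19 ± 0.13 (SE), which was -0.04 without origamicin replicate 1. Its X-linked pseudogene MAP2K4P1 had an unadjusted limma p under 0.05 in the opposite direction, with values of 4.19 and 4.03 under origamicin, against 3.78 and 3.88 in mock, close to the filter. The log2 change of the pseudogene was 0.28 ± 0.09 (SE) with an adjusted limma p of 0.257. Probes can be shared between a gene and its pseudogene, so both values are uncertain to that extent. MAP2K5, which encodes the kinase of ERK5, had a log2 change of -0.03 ± 0.13 (SE).

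Among the MAP kinases themselves 10 were tested, 4 higher and 6 lower, with a median log2 change of -0.04. Without mock replicate 1 the split was 2 higher and 8 lower, with a median of -0.07, and without mock replicate 2 it was 5 and 5, with a median of 0.014. MAPK3, which encodes ERK1, stood at 7.85 and 7.90 with origamicin, against 8.001 and 7.88 in mock. The groups overlapped, and the log2 change of -0.07 ± 0.08 (SE) had a 95% interval from -0.27 to 0.13. MAPK7, which encodes ERK5, stood at 7.10 and 7.19 with origamicin, against 7.18 and 7.21 in mock, with a log2 change of -0.05 ± 0.07 (SE). The one MAP kinase gene with an unadjusted limma p under 0.05 was MAPK4, which encodes the atypical kinase ERK4. It stood at 7.02 and 7.19 with origamicin, against 6.91 and 6.80 in mock, without overlap. The log2 change of MAPK4 was 0.25 ± 0.09 (SE), with an adjusted limma p of 0.300, and 0.16 without origamicin replicate 2. MAPK6, which encodes the related kinase ERK3, was at -0.02 ± 0.11 (SE), and MAPKAPK5, a kinase that both ERK3 and ERK4 bind, was at -0.09 ± 0.07 (SE).

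Of the JNK genes, MAPK9 (JNK2) stood at 7.37 and 7.38 with origamicin, against 7.05 and 7.43 in mock. The spread in mock was wider than the difference, and the log2 change was 0.13 ± 0.14 (SE). MAPK10 (JNK3, the neuronal form) stood at 4.56 and 4.53 with origamicin, against 4.63 and 4.70 in mock, without overlap and with a log2 change of -0.11 ± 0.07 (SE). Of the p38 genes, MAPK11 (p38β) stood at 6.11 and 6.16 with origamicin, against 6.16 and 6.45 in mock. Its log2 change was -0.17 ± 0.12 (SE), in groups that nearly touched, and it was -0.31 without mock replicate 1 and -0.03 without mock replicate 2. MAPK12 (p38γ) was at -0.25 ± 0.11 (SE) without overlap and MAPK13 (p38δ) at 0.02 ± 0.13 (SE) with overlap. Neither had an unadjusted limma p under 0.05. Downstream of p38, MAPKAPK2, the kinase that controls unstable cytokine mRNAs, was at 0.15 ± 0.07 (SE), and MAPKAPK3 at -0.12 ± 0.07 (SE). RPS6KL1, a ribosomal protein S6 kinase-like gene, was at -0.17 ± 0.08 (SE). In each of these 3 genes the groups did not overlap, and none had an unadjusted limma p under 0.05.

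**Figure D3:**
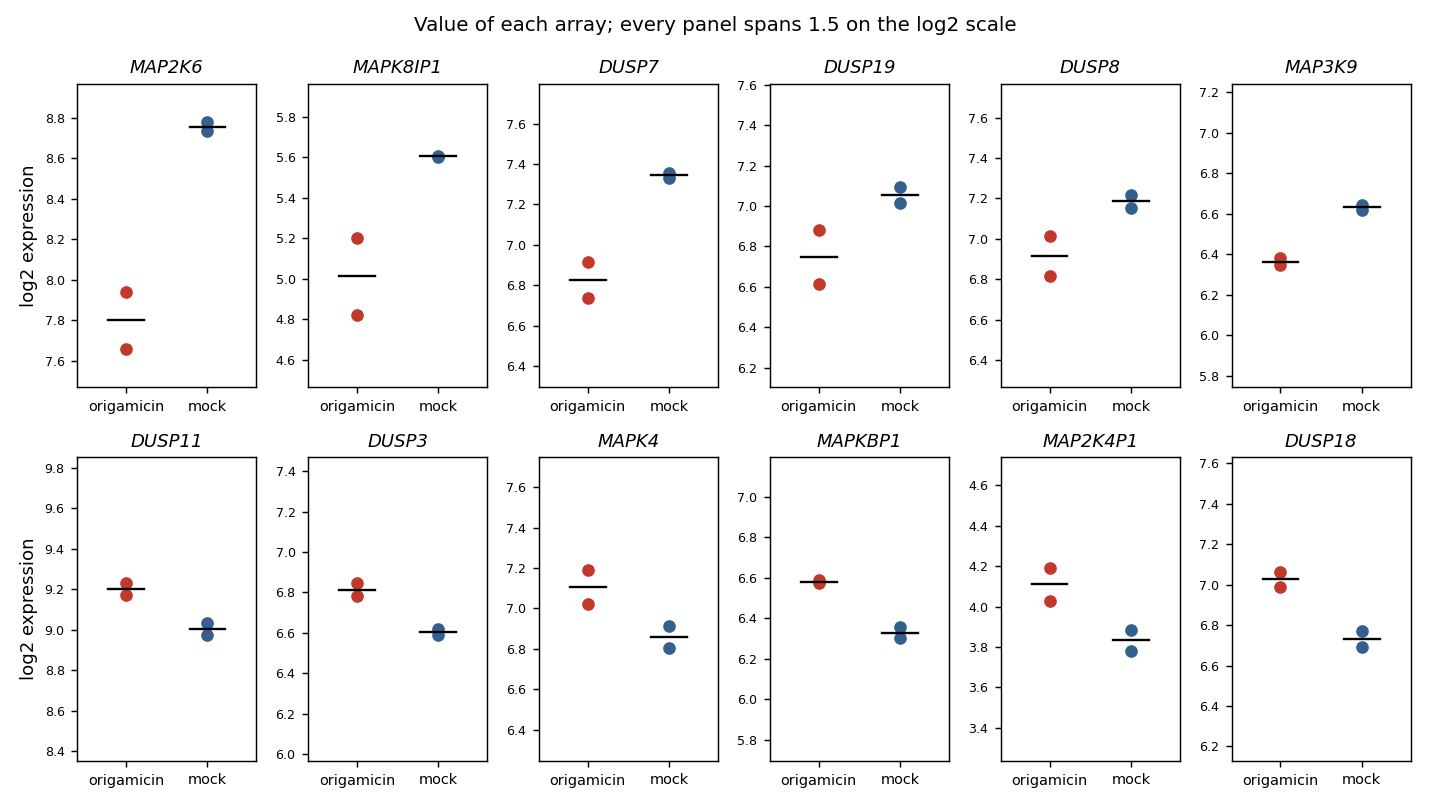
Log2 expression on each array (points) and the group mean (bar) for the 12 genes at an unadjusted limma p under 0.05, origamicin left and mock right; the vertical axes span equal lengths. In each of the 12 panels the groups do not overlap, and the gap in MAP2K6, at 7.66 and 7.94 against 8.73 and 8.78, is the widest. The 12 genes were picked by their p on these same arrays, so the lack of overlap adds no evidence, and 48.6% of all genes tested do not overlap.

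Scaffolds gather the kinases of a module, and MAPK8IP1 (JIP1) does so for JNK. Its brighter probe set stood at 5.20 and 4.82 with origamicin, against 5.61 and 5.60 in mock, without overlap. The log2 change was -0.59 ± 0.14 (SE), a level 1.51-fold lower, with an adjusted limma p of 0.192. The other probe set of MAPK8IP1 stood at 5.23 and 5.29 with origamicin, against 5.36 and 5.33 in mock, a log2 change of -0.09, and the mean of both probe sets stood at -0.34. The probe sets thus disagree on the size. The pseudogene MAPK8IP1P2, at -0.06 ± 0.09 (SE), was read by 4 probe sets, 3 of which held identical values.

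MAPKBP1, which encodes a JNK-binding protein, stood at 6.57 and 6.59 with origamicin, against 6.36 and 6.30 in mock, without overlap. For this probe set the log2 change was 0.25 ± 0.06 (SE), with an adjusted limma p of 0.206. Its dimmer probe set went the other way, with a log2 change of -0.06, and the mean of both stood at 0.10. The JNK scaffold genes MAPK8IP2 and MAPK8IP3 were at 0.05 ± 0.07 and 0.12 ± 0.06 (SE). MAPKAP1, which encodes the mTORC2 subunit SIN1 and is no part of a MAP kinase module, was at 0.07 ± 0.07 (SE). The group as listed had 6 of 7 genes with a positive log2 change, where 47.8% of all genes tested were higher. Of these 6, MAPKBP1 alone had an unadjusted limma p under 0.05. The count of 6 was the same under equal array medians and quantile normalization, with MAPK1IP1L at 0.16 ± 0.08 and MAP3K7CL at 0.21 ± 0.12 (SE).

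The typical DUSPs, or MAP kinase phosphatases, bind ERK, JNK or p38 through a docking domain and inactivate them. Of the 7 tested (DUSP1, DUSP2, DUSP7, DUSP8, DUSP9, DUSP10 and DUSP16), 6 were lower, with a median log2 change of -0.13. Among all genes tested 52.1% were lower. The count leaves out DUSP4 and DUSP5, which were higher, and DUSP6, which was lower, since the selection rule excluded them. Under equal array medians and quantile normalization 6 of the 7 were lower too. Leaving out origamicin replicate 2 or mock replicate 1 left 4 of 7 lower, with medians of -0.02 and -0.07. Of the 7, those with an unadjusted limma p under 0.05 were DUSP7 and DUSP8, both lower, beside 8.42% of all genes tested. DUSP8, a phosphatase of JNK and p38, stood at 6.82 and 7.01 with origamicin, against 7.16 and 7.22 in mock, without overlap. DUSP8 had a log2 change of -0.27 ± 0.09 (SE), with an adjusted limma p of 0.274, and -0.17 without origamicin replicate 1.

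DUSP1, the inducible nuclear phosphatase of stress-activated MAP kinases, stood at 8.38 and 8.43 with origamicin, against 8.59 and 8.48 in mock. The groups did not overlap, and the log2 change of -0.13 ± 0.07 (SE) had a 95% interval from -0.32 to 0.07. DUSP10, which acts on JNK and p38, stood at 7.10 and 6.99 with origamicin, against 7.003 and 7.01 in mock, with a log2 change of 0.04 ± 0.07 (SE). DUSP16, a JNK phosphatase, was at -0.07 ± 0.09 (SE) and DUSP2 at -0.03 ± 0.13 (SE). DUSP9, like DUSP7 a cytoplasmic ERK phosphatase, was at -0.18 ± 0.22 (SE) with overlapping groups. The remaining typical ERK phosphatase genes stood at 0.34 ± 0.08 (DUSP4), 0.29 ± 0.13 (DUSP5) and -0.14 ± 0.07 (DUSP6, SE), in each case without overlap.

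Atypical DUSPs lack the docking domain and act on varied substrates. Of the 13 tested, 9 were higher, where 47.8% of all genes tested were higher. The median log2 change was 0.10, and it ran from 0.03 without mock replicate 2 to 0.23 without mock replicate 1. The 9 to 4 split held under equal array medians and quantile normalization. Higher at an unadjusted limma p under 0.05 were DUSP18, DUSP3 and DUSP11, and lower was DUSP19. The shares over all genes tested were 7.99% higher and 8.42% lower. DUSP18, a phosphatase found at mitochondria, stood at 6.99 and 7.06 with origamicin, against 6.77 and 6.69 in mock. Its log2 change was 0.30 ± 0.07 (SE), the highest of the 73 genes, with an adjusted limma p of 0.193.

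DUSP3, or VHR, which can dephosphorylate ERK and JNK, stood at 6.78 and 6.85 with origamicin, against 6.62 and 6.59 in mock. The log2 change was 0.21 ± 0.07 (SE) with an adjusted limma p of 0.255. DUSP11, a nuclear phosphatase that acts on the 5′ ends of RNA, was at 0.20 ± 0.07 (SE) with an adjusted limma p of 0.274. DUSP19, linked to the JNK pathway, stood at 6.62 and 6.88 with origamicin, against 7.02 and 7.09 in mock, without overlap. Its log2 change was -0.31 ± 0.11 (SE), with an adjusted limma p of 0.293, and -0.17 without origamicin replicate 1. The other atypical DUSPs (DUSP12, DUSP13A, DUSP14, DUSP15, DUSP22, DUSP23, DUSP26, DUSP28 and DUSP29) had log2 changes from -0.12 (DUSP12) to 0.26 (DUSP15), none at an unadjusted limma p under 0.05.

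The remaining noncoding genes tested were 5 RNAs named for a neighbouring kinase or receptor phosphatase gene. They were MAP3K14-AS1, MAP4K3-DT, PTPRG-AS1, PTPRN2-AS1 and RPS6KA2-IT1, with log2 changes from -0.17 (MAP4K3-DT) to 0.23 (PTPRG-AS1). None had an unadjusted limma p under 0.05. MAP3K14-AS1, at -0.12 ± 0.10 (SE), is named as antisense to MAP3K14, the gene of the kinase NIK, which was at -0.04 ± 0.10 (SE).

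Genes around the cascade were described by lists. Upstream, 21 genes of RAS, RAF and adaptor proteins were tested, with a median log2 change of -0.02. At an unadjusted limma p under 0.05, 3 were higher and 1 lower, beside 7.99% and 8.42% of all genes tested. None of the 21 passed with an intensity trend. The smallest p belonged to the RAS activator RASGRP1 (-0.28 ± 0.07, SE), the RAS-related GTPase MRAS (0.25 ± 0.07) and the adaptor GAB2 (0.23 ± 0.07). Only 5 catalytic subunits of serine/threonine phosphatases had a named probe set, of 28 listed. Of these PHLPP2, a phosphatase of AKT, was at 0.28 ± 0.07 (SE), the only one with an unadjusted limma p under 0.05, and PHLPP1 was at 0.17 ± 0.07.

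Downstream, 16 genes known to be induced through ERK were tested, among them DUSP4, DUSP5 and DUSP6. Their median log2 change was 0.32, with 10 higher and 2 lower at an unadjusted limma p under 0.05, where 7.99% and 8.42% of all genes tested were called in those directions. With an intensity trend 8 rose and 1 fell, against 2.14% and 2.16% of all genes tested. This list was drawn up with earlier results of these data known, and the genes with the smallest p, MYC (-0.97 ± 0.08, SE), FOSL1 (0.76 ± 0.07) and EGR1 (1.08 ± 0.10), include one on the lower side. Of 13 JNK and p38 effectors and partners, 2 were higher and 1 lower at an unadjusted limma p under 0.05, with a median of -0.02, and these 3 genes passed with an intensity trend.

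JUN, the AP-1 subunit that JNK phosphorylates, stood at 7.16 and 7.10 with origamicin, against 7.75 and 7.67 in mock. The groups did not overlap, and its log2 change was -0.58 ± 0.07 (SE), with an adjusted limma p of 0.107 and of 0.0097 with an intensity trend. TXN, which encodes thioredoxin, the inhibitor of the kinase from MAP3K5, stood at 11.04 and 11.09 with origamicin, against 10.73 and 10.79 in mock. Its log2 change was 0.31 ± 0.07 (SE), with an adjusted limma p of 0.179 and of 0.0163 with an intensity trend. MEF2D, a transcription factor that p38 and ERK5 act on, was at 0.32 ± 0.09 (SE), with an adjusted limma p of 0.217 and of 0.0439 with an intensity trend.

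**Figure D4:**
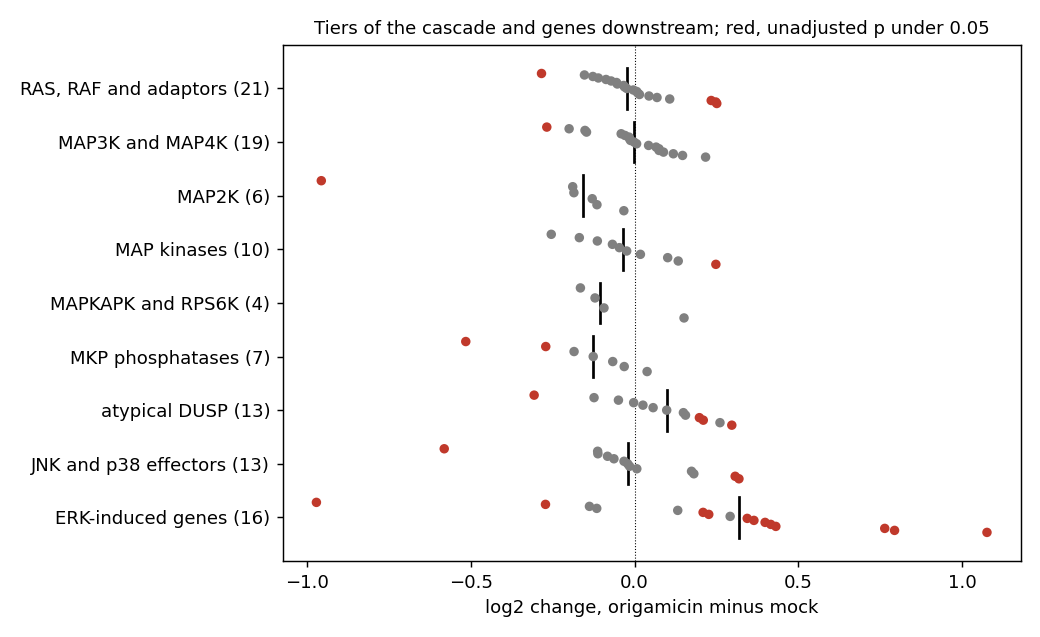
Log2 change (origamicin minus mock, horizontal axis) of each gene tested in the tiers of the cascade, in both phosphatase classes and in the lists upstream and downstream, with the number of genes in brackets, the median as a black line and genes at an unadjusted limma p under 0.05 in red. Among the cascade and phosphatase rows drawn, the medians lie between -0.16 (MAP2K) and 0.10 (atypical DUSP), and that of the ERK-induced genes lies at 0.32. The ERK-induced list holds DUSP4, DUSP5 and DUSP6 and was drawn up with earlier results of these data known.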

How the data were processed

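Per the labels' protocols, column-purified total RNA of 4 SH-SY5Y cultures was labelled with biotin and hybridised to Affymetrix arrays. The authors deposited log2 expression per probe set. The submitters' processing notes name RMA, a background, quantile and probe summary method, and limma. For versions, genome build and annotation, the sources used here give nothing. The deposited values ran from 0.574 to 14.5 with array medians from 4.37 to 4.42 and were not normalized again. Arrays have no counting depth, and their number limits the precision.

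A platform annotation gave 1 symbol to 16098 of 53617 probe sets. Per symbol the probe set with the highest mean was kept, and symbols with a mean under the 40th percentile (taken over the probe sets) were left out. Origamicin was compared with mock by two-sided limma tests (version 3.58.1, R 4.3.3), using lmFit, then eBayes with 1 prior variance for all genes, and Benjamini-Hochberg adjustment. The fit was tested on simulated data. Genes given with the value of every array were those past an adjusted p of 0.05 with or without an intensity trend, the 2 with the smallest unadjusted p under 0.05 on each side of a role group, and a list of central kinases and phosphatases. DUSP21, MAP3K19, MAP3K20-AS1, MAP2K3, MAP3K8 and the second probe set of MAPK8IP1 were added after their values were seen. From each list of other genes up to 3 with the smallest p were named. PHLPP1 and the DUSP4, DUSP5 and DUSP6 values stand beside related genes. The genes, lists and tests were chosen with earlier results of these data known. The alternatives were a replicate block, other filters, scalings and priors, the mean of a symbol's probe sets, leaving out each array, and an adjusted p of 0.1. Combinations with the intensity trend were chosen after seeing the data.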

Additional observations from a re-analysis of the deposited data

How the results depend on the processing

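The count of cascade genes past an adjusted limma p of 0.05 was 0. It was 1 with the 60th percentile filter (MAP2K6), where 0.993% of all genes tested passed. It was 2 with an intensity trend (MAP2K6 and DUSP7), where 4.3% passed. Under the other alternatives with all arrays it was 0, an adjusted p under 0.1 included, which 0.446% of all genes tested reached. At an unadjusted limma p under 0.05 there were 12 with all arrays, 6 of them higher, beside 16.4% of all genes tested. Leaving out each array in turn gave median log2 changes from -0.03 to 0.0065, and 53 to 57 genes without overlap. With all arrays 36 genes (49.3%) were without overlap, beside 48.6% of all genes tested, and leaving an array out moved that count. With an array left out the count is higher by construction, since a lone array overlaps less easily. It was 57 without origamicin replicate 2 and 55 without mock replicate 1, and no share over all genes is given beside it. With a replicate block 0 genes passed and 9 had an unadjusted limma p under 0.05, 3 of them higher, beside 14.5% of all genes tested. The labels give both groups replicates 1 and 2 without saying that a number marks a shared day, and same-numbered arrays deviated from their group means with r = -0.02 over the genes tested. With 2 arrays per group and a median SE of 0.09, small changes could not be told from the spread between arrays.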
